A study of Bos taurus with 6 samples.

Results

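The transcripts described here belong to the genes that make, lengthen, activate, store and burn fatty acids in bovine vaginal epithelial cells (BVECs). A list of 10 genes was taken: FASN, ACACA, SCD, ELOVL1, ELOVL4, ELOVL6, ACSL3, PLIN2, CPT1A and ANGPTL4. A gene was found where the deposited expression table carried its symbol as the gene name of a feature, and 7 of the 10 genes were found among 18014 features. ACACA, SCD and ELOVL1 had no feature under their own name, and what the table holds near the last 2 of these is given further on. All 7 found genes passed the filter on low values (0.5 FPKM or more, averaged over the 6 libraries) that left 13144 features to test. In the table they stand as MSTRG.6222 (FASN), ENSBTAG00000015498 (ELOVL4), MSTRG.12781 (ELOVL6), MSTRG.6799 (ACSL3), MSTRG.14095 (PLIN2), MSTRG.10447 (CPT1A) and MSTRG.13470 (ANGPTL4). ELOVL4 passed it only through the treated libraries.

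The study asked how BVECs respond to Lactobacillus strain SQ0048, which was isolated from the bovine vagina. Primary BVECs from the vaginal tissue of healthy young cows were grown to confluence in culture plates. In the SQ0048-treated group, 1 ml of bacteria at 1000000000 CFU/ml stood on the cell layer for 4 h, after which unbound bacteria were washed off. Control cells received no bacteria. Each group had 3 RNA-seq libraries, described by the study as biological replicates. No source used here states whether separate cultures or donors gave them, so the p-values reflect only how far these libraries differed, which may be technical.

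Fatty acid synthase, the product of FASN, joins acetyl and malonyl units into palmitate, and the malonyl units come from acetyl-CoA carboxylase, the product of ACACA. Elongases of the ELOVL family lengthen the chain and SCD places a double bond in it. Acyl-CoA synthetases such as ACSL3 activate fatty acids, which are then stored as triglyceride in lipid droplets, which PLIN2 coats, or carried into mitochondria for oxidation through CPT1A. ANGPTL4 is a secreted inhibitor of lipoprotein lipase, the enzyme that frees fatty acids from circulating triglyceride, and PLIN2, CPT1A and ANGPTL4 are known targets of the peroxisome proliferator-activated receptors (PPARs).

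Values are FPKM, in which fragment numbers are divided by feature length and by library size. The paper gives read numbers only as means of each group. Counts of single features cannot be recovered from the FPKM values, so no counting interval is given. The FPKM values of a library summed to between 372034 and 378772 in SQ0048-treated cells and between 343933 and 361055 in control cells. Libraries correlated at r = 0.917 to 0.932 within a group and at r = 0.894 to 0.905 between groups, across features, on the log2 scale. Epithelial keratins were abundant, with KRT8 at 1349.68 to 1444.87 FPKM in SQ0048-treated cells and 1098.64 to 1136.04 FPKM in control cells, whereas KRT14 had at most 0.51 FPKM. In bulk RNA, fewer cells of a type and less RNA per cell cannot be told apart.

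PLIN2, ANGPTL4 and the low ELOVL4 rose in cells treated with the SQ0048 strain, CPT1A fell slightly, and FASN, ELOVL6 and ACSL3 did not pass the test. Thus 4 of the 7 genes (57.1%) had an adjusted p under 0.05 in limma, beside 24.4% of all tested features. The count was 2 or 3 when a single library of either group was left out. ELOVL4 is among the 4, although it passed the filter only through the treated libraries. The genes were also chosen with earlier results of these data known, so these shares are descriptions and were not tested. Of the 4, 3 were higher, beside a background of 8.59%, and 1 was lower, beside 15.8%. In limma, ELOVL4 and PLIN2 also met the study's thresholds (a fold change of 2 or more, unadjusted p under 0.05), beside 5.52% of all tested features. The study applied these thresholds in edgeR, so its own calls may differ. The values of the groups did not overlap for 5 of the 7 genes, beside 45.7% of all features. The median log2 fold change of the 7 genes was -0.06, close to the -0.08 of all tested features, with 3 genes above and 4 below 0.

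**Figure D1:**
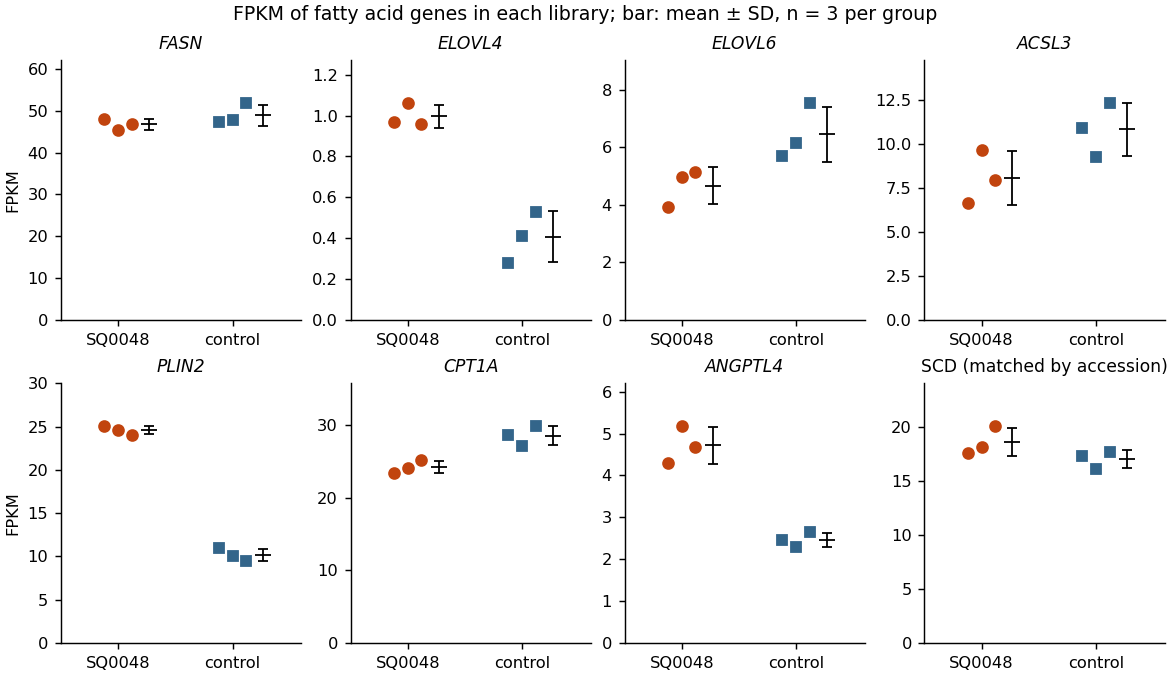
FPKM (y axis, from 0) of the 7 genes and of the SCD feature matched by accession, in 3 SQ0048-treated libraries (circles, left) and 3 control libraries (squares, right), with mean ± SD. PLIN2 stood at 24.06 to 25.01 FPKM in SQ0048-treated libraries and at 9.47 to 10.92 FPKM in control libraries, while the FASN points of the groups overlapped.

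Among the genes of synthesis, FASN was the most abundant of the 7, with a mean above that of 93.7% of all features. It had 48.03, 45.44 and 46.93 FPKM in SQ0048-treated cells, against 47.20, 47.67 and 51.76 FPKM in control cells. The groups overlapped, and the log2 fold change of -0.06 (SE 0.06, 95% interval -0.20 to 0.08, adjusted p = 0.477) turned to 0.02 when libraries were scaled by size factors. ACACA could not be followed here.

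SCD, the delta-9 desaturase, was read from a feature without a symbol whose RefSeq accession belongs to SCD. That feature had 17.60, 18.09 and 20.01 FPKM in SQ0048-treated cells and 17.29, 16.10 and 17.69 FPKM in control cells. The ranges overlapped in a single pair of libraries, treated replicate 1 and control replicate 3. Its log2 fold change was 0.12 (95% interval -0.06 to 0.31, adjusted p = 0.284), which did not pass the test.

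ELOVL1, which lengthens saturated very long chains, appears only in a feature that joins it with MED8, a subunit of the Mediator complex. The joined feature had 33.86, 32.71 and 28.45 FPKM in SQ0048-treated cells and 34.26, 35.34 and 25.73 FPKM in control cells. The resulting value, a log2 fold change of 0.01 (95% interval -0.35 to 0.36, adjusted p = 0.984), cannot be given to either gene. Control replicate 3 lay below the other libraries, and without it the value was -0.14.

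ELOVL4, which builds the very long chains of skin, retina and brain lipids, was the lowest of the 7 genes. It had 0.97, 1.06 and 0.96 FPKM in SQ0048-treated cells, against 0.28, 0.41 and 0.53 FPKM in control cells. Each treated library was above each control library, with means of 0.997 ± 0.0551 FPKM in SQ0048-treated cells and 0.407 ± 0.125 FPKM in control cells (SD, n = 3 each). The log2 fold change was 1.14 (SE 0.27, 95% interval 0.48 to 1.80, adjusted p = 0.0308). Values on the log2(FPKM + 0.1) scale understate the change of low genes, and here the pseudocount set the size, with 0.51 at a pseudocount of 1 and 1.32 at 0.01. The call was lost without any 1 of the 3 treated libraries or without control replicate 1 or 2 (adjusted p = 0.0629 to 0.086), and was kept without control replicate 3 and with no filter on low values.

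ELOVL6, which takes palmitate to stearate, lay on the other side. It had 3.92, 4.96 and 5.12 FPKM in SQ0048-treated cells, against 5.68, 6.15 and 7.52 FPKM in control cells. The groups did not overlap, but the spread within them was wide, and the log2 fold change of -0.46 (SE 0.15, 95% interval -0.84 to -0.08) had an adjusted p of 0.082. It stayed above the threshold in each alternative tried (adjusted p = 0.0601 to 0.189) and below 0 in all of them.

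ACSL3, an acyl-CoA synthetase of the endoplasmic reticulum and of nascent lipid droplets, had 6.63, 9.68 and 7.94 FPKM in SQ0048-treated cells, against 10.91, 9.28 and 12.32 FPKM in control cells. Treated replicate 2 lay above control replicate 2, so the groups overlapped. Its log2 fold change was -0.43 (SE 0.17, 95% interval -0.85 to -0.00) with an adjusted p of 0.13, and it did not pass the test under any alternative.

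PLIN2, the perilipin that coats lipid droplets in most cell types, had the smallest adjusted p of the 7 genes. It had 25.01, 24.65 and 24.06 FPKM in SQ0048-treated cells, against 10.92, 10.07 and 9.47 FPKM in control cells. The means were 24.57 ± 0.48 FPKM in SQ0048-treated cells and 10.15 ± 0.729 FPKM in control cells (SD, n = 3 each), a ratio of 2.42. The log2 fold change of 1.27 (SE 0.07, 95% interval 1.10 to 1.44, adjusted p = 8.4e-04) exceeded that of 97.4% of tested features, counting ties. It ranged between 1.18 and 1.35 over 15 alternatives, with an adjusted p of at most 0.0259.

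CPT1A, the carnitine palmitoyltransferase that admits long-chain fatty acids to mitochondria, had 23.44, 24.17 and 25.18 FPKM in SQ0048-treated cells. In control cells it had 28.67, 27.21 and 29.85 FPKM. All treated values lay below all control values, but the difference was small. The log2 fold change was -0.23 (SE 0.06, 95% interval -0.38 to -0.09, adjusted p = 0.0406), which lies within the middle range of all features, since 36.4% of them had a value as low or lower. The call did not hold under size factors (adjusted p = 0.145), quantile normalization (adjusted p = 0.099) or without any single library (adjusted p = 0.0531 to 0.118), while the value stayed below 0 throughout.

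ANGPTL4 had 4.30, 5.17 and 4.69 FPKM in SQ0048-treated cells, against 2.45, 2.30 and 2.64 FPKM in control cells. The lowest treated value was above the highest control value by more than the range of either group. Its log2 fold change was 0.91 (SE 0.11, 95% interval 0.65 to 1.17, adjusted p = 0.00515), and the call was kept in each alternative that tested it (adjusted p of at most 0.0474). With 3 libraries in each group the smallest p of an exact two-sided permutation test is 0.1, and the 5 genes without overlap, PLIN2, ANGPTL4, ELOVL4, ELOVL6 and CPT1A, reached that value.

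**Figure D2:**
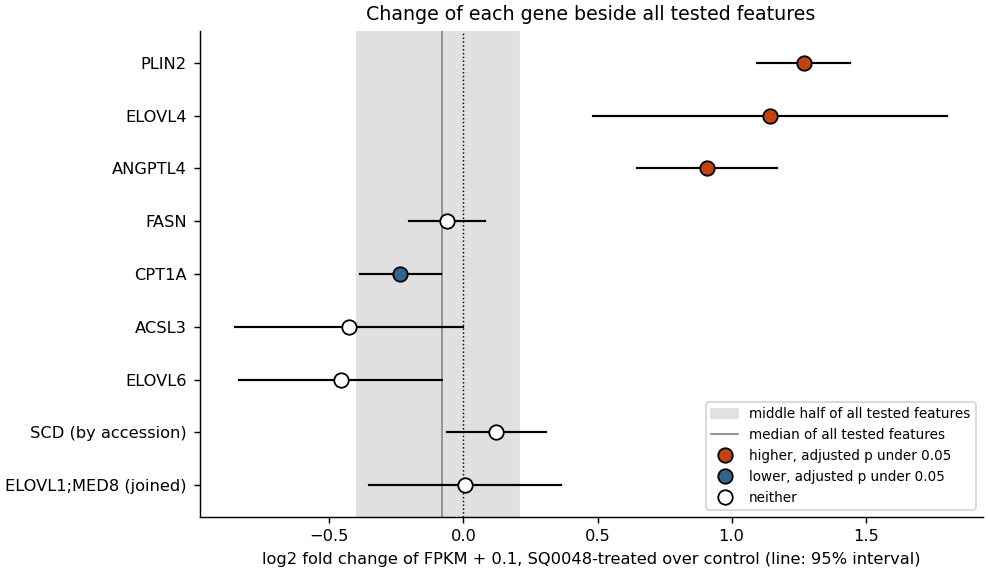
Log2 fold change of FPKM + 0.1, SQ0048-treated over control (x axis), of the 7 genes and of the SCD and ELOVL1;MED8 features, with 95% intervals. The grey band spans the quartiles of all tested features, -0.40 to 0.21, and PLIN2, ELOVL4 and ANGPTL4 lie to its right.

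The place of PLIN2 in the order of FPKM levels differed between the groups. FASN stood highest in both groups. In SQ0048-treated cells PLIN2 (24.06 to 25.01 FPKM) and CPT1A (23.44 to 25.18 FPKM) shared the next place, since their ranges overlapped. In control cells CPT1A (27.21 to 29.85 FPKM) stood well above PLIN2 (9.47 to 10.92 FPKM), whose range overlapped that of ACSL3 (9.28 to 12.32 FPKM). ELOVL6 and ANGPTL4 overlapped in SQ0048-treated cells, at 3.92 to 5.12 FPKM and 4.30 to 5.17 FPKM, while in control cells ELOVL6 (5.68 to 7.52 FPKM) stood above ANGPTL4 (2.30 to 2.64 FPKM). ELOVL4 was the lowest in both groups.

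Ratios within a library do not depend on how libraries are scaled against each other. The FPKM ratio of PLIN2 to CPT1A was 1.07, 1.02 and 0.956 in SQ0048-treated libraries, against 0.381, 0.37 and 0.317 in control libraries. PLIN2 to FASN gave 0.521, 0.542 and 0.513 in SQ0048-treated libraries and 0.231, 0.211 and 0.183 in control libraries. CPT1A to FASN gave 0.488, 0.532 and 0.537 in SQ0048-treated libraries and 0.607, 0.571 and 0.577 in control libraries. None of these 3 ratios overlapped between the groups, so PLIN2 differed between the groups relative to both genes, and CPT1A relative to FASN. PLIN2 and CPT1A did not overlap on their own either, and no share of such ratios over other gene pairs was computed. The ratio of ACSL3 to its paralogue ACSL5 was 0.114 to 0.156 in SQ0048-treated libraries and 0.117 to 0.156 in control libraries, and overlapped.

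**Figure D3:**
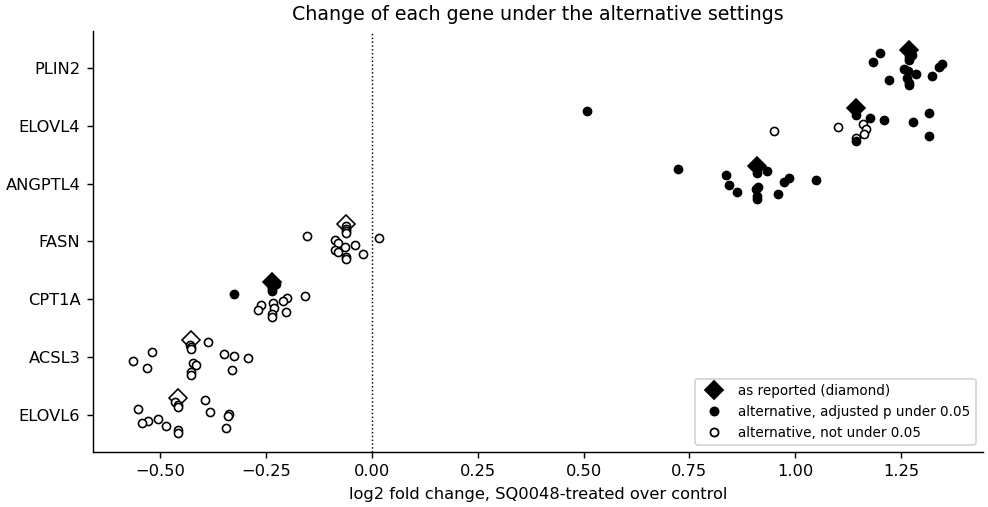
Log2 fold change (x axis) of the 7 genes as reported (diamonds) and under each alternative that tested them (circles), filled where the adjusted p was under 0.05. All PLIN2 and ANGPTL4 symbols are filled, while most CPT1A alternatives are open.

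The rest of the pathway was read from 10 lists with 177 further symbols, of which 150 had a feature and 122 were tested. Of these 22 rose, 9 fell and 91 did not pass the test, so that 25.4% were called, close to the 24.4% of all features. Their median log2 fold change was 0.10, against -0.08 for all tested features. The split depends on scaling: 29% of the calls were lower as deposited, 54.8% after rescaling to TPM, 18.4% with size factors and 18.8% with quantile normalization. The calls of CBR4, FADS3, ACSL4, LPIN3, PNPLA2, ECI1, ACADVL, ABCD3, SCP2, LMF1, NR1H2, NR1H3 and PRKAB2 were each lost when at least 1 of the 6 libraries was left out (adjusted p of at most 0.234 over all alternatives), and the directions of all of them were kept. Those of ACBD5, ACSL5 and GPAM were lost only with a replicate block (adjusted p of at most 0.0582), and the other called genes of these lists that are named below kept their calls in each alternative that tested them. Genes are named by a fixed rule, and those singled out beyond it are said to be so.

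Most synthesis and elongation genes around FASN did not pass the test, as was the case for most tested features (24.4% called). In de novo synthesis, 1 of 10 tested genes fell and none rose (median 0.17). The one was CBR4, a subunit of the mitochondrial ketoacyl reductase, with 1.81, 2.69 and 1.71 FPKM in SQ0048-treated cells and at least 3.56 FPKM in each control library (log2 fold change -0.87, adjusted p = 0.0239). In the elongation cycle, none of 8 genes passed the test (median 0.15). Its most abundant genes were TECR, the enoyl reductase of the cycle, at 34.01 to 39.40 FPKM in SQ0048-treated cells and 31.28 to 34.22 FPKM in control cells (adjusted p = 0.137), and HACD2, a dehydratase, at 20.70 to 25.38 FPKM in SQ0048-treated cells and 23.74 to 24.75 FPKM in control cells (adjusted p = 0.417). At an unadjusted p under 0.05 there was 1 of these 8 genes, ELOVL7.

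Other elongases were singled out after their values were seen. ELOVL7 had 9.49, 16.15 and 7.11 FPKM in SQ0048-treated cells, against 4.19, 4.14 and 7.10 FPKM in control cells. Treated replicate 3 and control replicate 3 were nearly equal, and the log2 fold change of 1.03 (95% interval 0.14 to 1.93) had an adjusted p of 0.0916. ELOVL5, which lengthens polyunsaturated chains, had 12.46 to 16.58 FPKM in SQ0048-treated cells and 12.81 to 13.10 FPKM in control cells (log2 fold change 0.12, adjusted p = 0.476). ELOVL3 was listed at 0 in all control libraries and at 0.22, 0.04 and 0.05 FPKM in SQ0048-treated libraries, which is too low for a fold change.

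Among the desaturases, 1 of 6 tested genes rose and none fell (16.7% called, beside 24.4% of all tested features, median 0.21). FADS3 had 115.91, 112.19 and 122.04 FPKM in SQ0048-treated cells and 94.57, 100.87 and 95.45 FPKM in control cells (log2 fold change 0.27, adjusted p = 0.021). Its call was lost after rescaling to TPM (0.18) and with quantile normalization (0.19).

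In the list of fatty acid activation, 3 of 14 tested genes were lower and 1 higher (28.6% called, median -0.07), a share near the 24.4% of all tested features, among which falls also outnumbered rises. ACSL5, the most abundant synthetase measured, had 58.17, 61.96 and 64.29 FPKM in SQ0048-treated cells, against 79.30, 79.21 and 79.04 FPKM in control cells (log2 fold change -0.37, adjusted p = 0.0085). ACSL4, which prefers arachidonate, had 26.52, 30.62 and 24.63 FPKM in SQ0048-treated cells, against 38.67, 38.20 and 46.76 FPKM in control cells (log2 fold change -0.59, adjusted p = 0.0197). The value of ACSL3, -0.43, had the same sign without passing the test. ACSL1, chosen after its values were seen, had a log2 fold change of -0.12 (adjusted p = 0.228). ACBD5, an acyl-CoA binding protein of the peroxisome, fell to 8.44 to 9.10 FPKM in SQ0048-treated cells, against 12.69 to 14.70 FPKM in control cells (log2 fold change -0.59, adjusted p = 0.00756). ACOT8, a peroxisomal thioesterase, rose to 27.93 to 29.44 FPKM in SQ0048-treated cells, against 19.26 to 21.42 FPKM in control cells (log2 fold change 0.47, adjusted p = 0.00739).

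**Figure D4:**
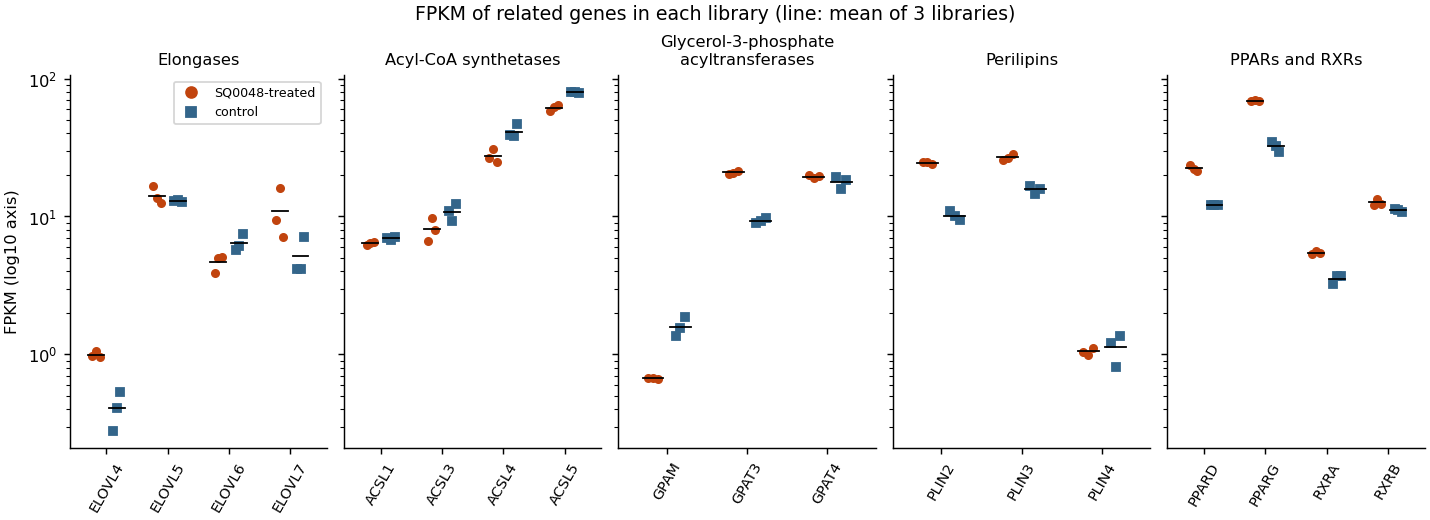
FPKM on a log10 axis of ELOVL, ACSL, glycerol-3-phosphate acyltransferase, perilipin, PPAR and RXR genes in SQ0048-treated (circles, left of each pair) and control libraries (squares, right), with a line at each mean. GPAT3 stood at 20.46 to 21.49 FPKM in SQ0048-treated libraries and 8.91 to 9.82 FPKM in control libraries, while GPAM ran the other way.

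Assembly of glycerolipids, which turns activated fatty acids into phosphatidate and triglyceride, had 3 of 12 tested genes higher and 1 lower (median 0.38). The share called was 33.3%, beside 24.4% of all tested features. GPAT3 and GPAM both encode glycerol-3-phosphate acyltransferases, the enzymes of the entry step, in the endoplasmic reticulum and at the mitochondrion. GPAT3 had 20.46, 20.74 and 21.49 FPKM in SQ0048-treated cells, against 8.91, 9.26 and 9.82 FPKM in control cells (log2 fold change 1.16, SE 0.06, adjusted p = 8.3e-04). GPAM had 0.67, 0.68 and 0.66 FPKM in SQ0048-treated cells, against 1.36, 1.56 and 1.86 FPKM in control cells (log2 fold change -1.13, SE 0.17, adjusted p = 0.00954). As for ELOVL4, the size for GPAM depends on the pseudocount, with -0.63 at a pseudocount of 1 (adjusted p = 0.0103). These paralogues thus moved in opposite directions, and the third, GPAT4, chosen after its values were seen, had 18.94 to 19.89 FPKM in SQ0048-treated cells and 15.74 to 19.45 FPKM in control cells (adjusted p = 0.355). The FPKM ratio of GPAT3 to GPAT4 was 1.03, 1.1 and 1.1 in SQ0048-treated libraries, against 0.458, 0.588 and 0.533 in control libraries. LPIN1 and LPIN3, phosphatidate phosphatases, also rose. LPIN1 had 3.52, 3.55 and 3.55 FPKM in SQ0048-treated cells, against 1.86, 1.92 and 2.25 FPKM in control cells (log2 fold change 0.79, adjusted p = 0.0068). LPIN3 had 3.95 to 4.42 FPKM in SQ0048-treated cells and 2.59 to 3.31 FPKM in control cells (log2 fold change 0.47, adjusted p = 0.0351), and its call was lost after rescaling to TPM.

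At the lipid droplet, 3 of 9 tested genes besides PLIN2 rose and none fell (median -0.06). The share called was 33.3%, beside 24.4% of all tested features. PLIN3, another droplet coat protein, had 25.69, 26.61 and 28.30 FPKM in SQ0048-treated cells, against 16.71, 14.66 and 15.87 FPKM in control cells (log2 fold change 0.77, adjusted p = 0.0033). The ratio of PLIN2 to PLIN3 was still 0.974, 0.926 and 0.85 in SQ0048-treated libraries, against 0.654, 0.687 and 0.597 in control libraries. PNPLA2, the adipose triglyceride lipase, had 12.53 to 14.16 FPKM in SQ0048-treated cells and 10.78 to 11.10 FPKM in control cells (log2 fold change 0.27, adjusted p = 0.0353), a call lost after rescaling to TPM and without any single library. G0S2, the inhibitor of that lipase, had 7.12, 5.36 and 5.68 FPKM in SQ0048-treated cells, against 3.17, 3.03 and 2.90 FPKM in control cells (log2 fold change 0.96, adjusted p = 0.0067). The transcripts of a lipase and of its inhibitor were therefore both higher. PLIN1 and CIDEC, droplet proteins of adipocytes, stayed under 0.5 FPKM in all libraries, and the 4 adipocyte markers in the table summed to 0.67 to 1.06 FPKM in SQ0048-treated cells and 0.5 to 0.79 FPKM in control cells.

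**Figure D5:**
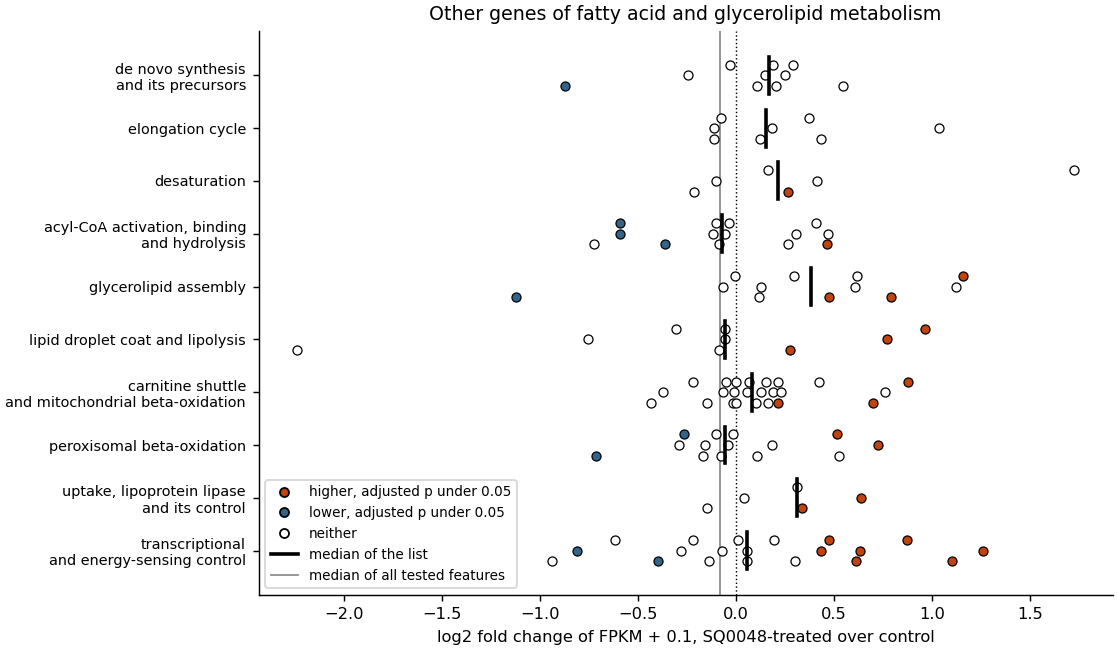
Change of the tested genes of the 10 lists without the 10 genes of the main list (x axis, log2 fold change of FPKM + 0.1, SQ0048-treated over control; 1 row per list), filled where the adjusted p was under 0.05. Glycerolipid assembly has the highest list median (0.38), and the grey line marks the -0.08 of all tested features.

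Around CPT1A, 3 of 24 tested genes of the carnitine shuttle and mitochondrial beta-oxidation rose and none fell (median 0.08). The share called was 12.5%, beside 24.4% of all tested features. CPT2, the partner of CPT1A at the inner membrane, had 12.75 to 14.12 FPKM in SQ0048-treated cells and 14.67 to 17.39 FPKM in control cells. Its log2 fold change of -0.22 (adjusted p = 0.131) was close to the -0.23 of CPT1A, although it did not pass the test, and it was chosen after its values were seen. ACADVL, the very long-chain acyl-CoA dehydrogenase, had 159.72, 151.30 and 161.64 FPKM in SQ0048-treated cells, against 139.89, 133.69 and 133.52 FPKM in control cells (log2 fold change 0.22, adjusted p = 0.0284). ECI1, an enoyl-CoA isomerase, had 11.77 to 13.19 FPKM in SQ0048-treated cells and 6.47 to 10.04 FPKM in control cells (log2 fold change 0.70, adjusted p = 0.0371). Both of these calls were lost after rescaling to TPM, which gave 0.12 for ACADVL. ACAD10, another member of the dehydrogenase family, had 5.01, 5.07 and 4.69 FPKM in SQ0048-treated cells, against 3.01, 2.66 and 2.29 FPKM in control cells (log2 fold change 0.88, adjusted p = 0.00721), and kept its call throughout.

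Peroxisomal beta-oxidation had 2 of 14 tested genes higher and 2 lower (28.6% called, beside 24.4% of all tested features, median -0.06). ACAA1, the peroxisomal thiolase, had 72.78, 71.89 and 72.82 FPKM in SQ0048-treated cells, against 53.12, 48.20 and 50.83 FPKM in control cells (log2 fold change 0.52, adjusted p = 0.00382). ABCD3, a transporter of the peroxisomal membrane, had 7.40 to 9.95 FPKM in SQ0048-treated cells and 11.86 to 17.60 FPKM in control cells (log2 fold change -0.72, adjusted p = 0.0374). SCP2, which encodes a peroxisomal thiolase and a sterol carrier, had 25.62 to 29.59 FPKM in SQ0048-treated cells and 31.44 to 33.73 FPKM in control cells (log2 fold change -0.27, adjusted p = 0.047). The call of ACAA1 was kept under each scaling, and those of ABCD3 and SCP2 were lost with quantile normalization. That of SCP2 was also lost with size factors (adjusted p = 0.108), and in 10 of 15 alternatives in all.

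Besides ANGPTL4, 2 of 5 tested genes of lipid uptake and lipoprotein lipase rose and none fell (median 0.31). The share called was 40%, beside 24.4% of all tested features. VLDLR, a receptor for triglyceride-rich lipoproteins, had 12.04, 14.48 and 13.72 FPKM in SQ0048-treated cells, against 8.22, 8.87 and 8.63 FPKM in control cells (log2 fold change 0.64, adjusted p = 0.00749). LMF1, which helps lipases to mature, had 4.30 to 4.49 FPKM in SQ0048-treated cells and 3.33 to 3.64 FPKM in control cells (log2 fold change 0.33, adjusted p = 0.0276), a call lost after rescaling to TPM. LPL, the lipase that ANGPTL4 inhibits, had no feature under its name and was not analysed here.

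Transcriptional and energy-sensing control held the largest number of calls of the 10 lists, with 7 of 20 tested genes higher and 2 lower (median 0.05). That is 45% called, beside 24.4% of all tested features. The list was chosen with earlier results of these data known, so this share is a description and was not tested. PPARG, a nuclear receptor known for driving fat storage, had 69.10, 69.33 and 69.17 FPKM in SQ0048-treated cells, against 34.88, 32.42 and 29.51 FPKM in control cells (log2 fold change 1.10, SE 0.07, adjusted p = 0.00136). PPARD had 23.57, 22.01 and 21.37 FPKM in SQ0048-treated cells, against 12.07, 12.20 and 12.16 FPKM in control cells (log2 fold change 0.87, adjusted p = 0.00148). RXRA, a partner of both receptors chosen after its values were seen, had 5.35 to 5.65 FPKM in SQ0048-treated cells and 3.23 to 3.72 FPKM in control cells (log2 fold change 0.61, adjusted p = 0.00781). PPARA averaged under 0.5 FPKM in both groups and was not tested.

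INSIG1 and SREBF1 belong to the other known control arm, the sterol regulatory element-binding proteins. INSIG1, which holds these factors in the endoplasmic reticulum, had 9.48, 9.24 and 9.65 FPKM in SQ0048-treated cells, against 3.89, 4.13 and 3.68 FPKM in control cells (log2 fold change 1.26, SE 0.07, adjusted p = 8.7e-04). SREBF1, chosen after its values were seen, had 11.83 to 13.09 FPKM in SQ0048-treated cells and 12.21 to 12.56 FPKM in control cells. Its log2 fold change was 0.01 (adjusted p = 0.924) and turned to -0.08 after rescaling to TPM.

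PRKAA1, a catalytic subunit of the AMP-activated kinase, had 2.55, 3.27 and 2.84 FPKM in SQ0048-treated cells, against 4.78, 5.36 and 5.22 FPKM in control cells (log2 fold change -0.81, adjusted p = 0.00807). MID1IP1, an activator of acetyl-CoA carboxylase chosen after its values were seen, had 22.11 to 24.59 FPKM in SQ0048-treated cells and 13.93 to 15.84 FPKM in control cells (log2 fold change 0.63, adjusted p = 0.00569). The remaining calls of this list, NR1H2 and NR1H3 (liver X receptors, log2 fold changes 0.47 and 0.43) and PRKAB2 (-0.40), had adjusted p-values of 0.0239, 0.0418 and 0.0324.

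Markers of epithelial and other cell types were read beside these genes. Of 11 tested epithelial markers, 2 rose and 1 fell, beside 24.4% called over all tested features. KRT8 and KRT18 rose with log2 fold changes of 0.32 and 0.31 (adjusted p = 0.00742 and 0.0103). GRHL2, an epithelial transcription factor, fell with -0.45 (adjusted p = 0.0111). The other tested epithelial markers did not pass the test. Of these KRT19 (0.23), KRT7 (0.16), CDH1 (0.26), CLDN4 (0.84) and OVOL1 (2.56) lay above 0, and KRT5 (-0.09), EPCAM (-0.09) and ESRP1 (-0.14) below it. Fibroblast markers, which bear on the few fibroblasts the study saw in its primary cultures, summed to 538.8 to 567 FPKM in SQ0048-treated cells and 524.8 to 563.1 FPKM in control cells, and most of this was VIM. COL1A1, COL1A2 and THY1 rose (3 of 6 tested fibroblast markers, beside 8.59% higher over all tested features), each at under 5 FPKM. The other tested ones, COL3A1, LUM and VIM, did not pass the test (log2 fold changes -0.13, -0.41 and 0.06). COL3A1, the most abundant collagen of the list, had 47.09 to 48.25 FPKM in SQ0048-treated cells and 49.82 to 54.30 FPKM in control cells. DCN, PDGFRA, PDGFRB and FAP each averaged under 0.5 FPKM over the 6 libraries. Leukocyte markers summed to 2.06 to 2.59 FPKM in SQ0048-treated cells and 2.21 to 2.5 FPKM in control cells. Endothelial markers summed to 2.42 to 2.51 FPKM in SQ0048-treated cells and 1.56 to 1.61 FPKM in control cells. Nearly all of the endothelial sum was VWF, while PECAM1 and TEK had at most 0.04 FPKM in any library. The part of fibroblast or endothelial RNA in the changes of PLIN2, ANGPTL4 and PPARG was not tested.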

How the data were processed

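The authors deposited 1 table of FPKM values, with 1 column per library and values rounded to 2 decimals. The build was ARS-UCD1.2 and the tools StringTie 1.3.0, HISAT2 2.0 and Bowtie 0.12.2 according to the submitters' processing notes, whereas the paper lists Cutadapt, FastQC, Hisat 2.0, Cufflinks and edgeR. No source used here gives the strand setting, so reads of overlapping genes on opposite strands may not be separated, and 269 features join several symbols. The table holds no counts and no test results, and 0 columns of values were left unused.

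Values were read with Python 3.11.15 and fitted on the log2(FPKM + 0.1) scale by limma 3.58.1 in R 4.3.3 (lmFit, then eBayes with trend). Tests were two-sided, with condition as the only term and Benjamini-Hochberg adjustment over the 13144 features that averaged 0.5 FPKM or more. An adjusted p under 0.05 counted as a rise or a fall. The fit was also run on simulated data with planted changes of 2-fold or more. That run does not bear on smaller changes such as that of CPT1A. Symbols came from the table or, for 83 features, from its RefSeq accessions through an annotation of ARS-UCD2.0, used for names only. Where a symbol had several features, the one with the highest mean was taken. The members and lists were chosen with earlier results of these data known. Of each list, the text names up to 4 called genes with the largest absolute log2 fold change, or the 2 most abundant where none was called, and genes at 0 in all libraries of 1 group and above 0 in all of the other. Alternatives covered pseudocounts of 1 and 0.01, removing the filter or raising it to 5 FPKM, rescaling to TPM, size factors, quantile normalization, each library left out, a replicate block and no trend. Promoters and proteins were not analysed here. A gene that this rule would name is not reported here.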

Additional observations from a re-analysis of the deposited data

How the results depend on the processing

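Of 50 single genes followed over up to 15 alternatives, 35 were called, and 16 of these kept the call in each alternative that tested them. The direction turned for 3, none of them called: FASN with size factors (0.0167), SREBF1 after rescaling to TPM (-0.0799) and between -0.0244 and 0.0480 with a library left out, and ELOVL1;MED8 after rescaling to TPM (-0.0846) and between -0.1392 and 0.0889 with a library left out. With a mean of at least 5 FPKM, 2 of 5 tested genes of the main list and 20 of 78 in the wider lists were called. With each library left out in turn, the calls numbered 1662 to 2966 over all features, 2 to 3 in the main list and 17 to 26 in the wider lists. Rescaling to TPM gave 77.7% lower calls over all features, size factors 51.8% and quantile normalization 54.5%, against 64.7% as deposited, and moved the median of all features to -0.17, -0.01 and -0.01. Treated and control libraries of the same number did not deviate together (r = -0.0124, 0.0011 and 0.0102, other pairs -0.0137 to 0.013), so the numbers are not taken as pairs. With a replicate block there were 847 calls over all features, 2 in the main list (PLIN2 and ANGPTL4) and 14 in the wider lists. The number of fragments behind each value is unknown, which limits low genes such as ELOVL4 most.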

Other observations

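Some genes of these lists had 1 library far above the other 5. A library at least 2 times the next highest was found for 6 of 130 tested genes (4.62%), beside 349 of 13144 tested features (2.66%), and the genes were chosen after their values were seen. DEGS1, the dihydroceramide desaturase, had 76.17 FPKM in SQ0048-treated replicate 1 and 0.41 to 1.83 FPKM in the other libraries. HACD3 had 22.00 FPKM in the same library, with 9.15 and 9.42 FPKM in the other treated libraries and 8.25 to 10.03 FPKM in control cells. HSD17B12, the ketoacyl reductase of the elongation cycle, had 29.85 FPKM in SQ0048-treated replicate 3, with 10.17 and 10.90 FPKM in the other treated libraries and 9.84 to 13.17 FPKM in control cells. FITM2, a protein of droplet formation, had 18.15 FPKM in control replicate 3 and at most 0.26 FPKM elsewhere. ACBD3 had 21.78 FPKM in that library, with 6.76 to 8.57 FPKM in SQ0048-treated cells and 9.83 and 9.90 FPKM in the other control libraries. PRKAA2 had 2.07 FPKM in control replicate 1, with 0.41 to 0.85 FPKM in SQ0048-treated cells and 0.84 and 0.96 FPKM in the other control libraries. None of the 6 passed the test (adjusted p = 0.159 to 0.57).

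The deposited table annotates features with KEGG pathways, and 6 of these, picked by hand, were read. Each holds genes of the main list, and other pathways that may hold them were not searched. The 7 found genes of the main list were left out, but the SCD and ELOVL1;MED8 features, where annotated, were not. The share of the remaining tested features called in limma lay above the 24.4% of all tested features in 2 pathways and below it in 4. The PPAR signaling pathway held 31 such features, of which 6 were higher and 5 lower in SQ0048-treated cells (35.5%, median log2 fold change 0.07). Among the called ones, RXRA, NR1H3, ACAA1, PPARG, PPARD, SCP2, ACSL4 and ACSL5 were already counted in the lists above, and the rest had no symbol. Fatty acid biosynthesis held 7, of which none was higher and 4 were lower (57.1%, median -0.31), beside 15.8% lower over all features. Among the 4 were ACSL4 and ACSL5, counted above under activation, and the rest had no symbol. The list of de novo synthesis had 1 of 10 tested genes lower, with a median of 0.17. Fatty acid degradation held 31, with 3 higher and 4 lower (22.6%), and fatty acid metabolism held 38, with 2 higher and 4 lower (15.8%). The biosynthesis of unsaturated fatty acids held 17, with 1 higher (5.88%). Fatty acid elongation held 20, of which 0 were called and 6 had an unadjusted p under 0.05. The pathways share genes, and these counts are descriptions that were not tested.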
